A study of Homo sapiens with 4 samples.

Results

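The cytosolic ribosomal protein genes were followed in DU145 cells after knockdown of DCUN1D1, which promotes the attachment of NEDD8 to cullins. Members were all probe sets whose platform annotation names a single gene with the symbol of a large subunit (RPL) or small subunit (RPS) protein, the acidic P proteins and RPSA included. Each probe set combines the signal of several short probes against one RNA. The rule found 177 of the 40914 probe sets that name 1 gene, and these stand for 72 of 19774 genes. The large subunit had 46 genes in 115 probe sets and the small subunit 26 genes in 62 probe sets. Where a gene had several probe sets, the brightest on average over the arrays stood for it. RPLP0, RPSA, RPS27A and RPL15 were not analysed here, and the counts cover the genes measured.

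DU145 is an established human prostate carcinoma cell line. RNA was measured on 4 Affymetrix arrays, 2 from DU145 shDCUN1D1 cells (the knockdown) and 2 from DU145 shGFP cells (the control), called biological duplicates in the records. Both groups carried a lentiviral shRNA, against DCUN1D1 in the knockdown and against GFP, which the cells lack, in the control, and both were cultured for 16 h in DMEM before RNA extraction. For the array experiment, the methods of the study describe infection with 2 distinct DCUN1D1 shRNAs. The shRNA used for a given knockdown array is missing from the records, as is the number of transduced cultures behind the duplicates. The knockdown arrays may therefore differ in their shRNA, and the part of this in their differences was not tested. Every p-value thus measures the spread between these arrays. All values are log2 signal, and each pair of values is given in the order of replicates 1 and 2.

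A cytosolic ribosome is made of a large subunit, which forms peptide bonds, and a small subunit, which reads the mRNA. Nearly every protein is present once per ribosome, and the subunits are assembled in the nucleolus and nucleus from ribosomal RNA and imported proteins. Most mRNAs of ribosomal proteins begin with a C followed by a run of pyrimidines (the 5′ terminal oligopyrimidine tract), through which their translation is regulated together in growing cells.

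This feature was read from RefSeq promoter windows (GRCh38.p14), since it is what the genes share apart from their names. A tract was counted where the first transcribed base was C and at least the next 4 bases were C or T, on the transcribed strand only. At least 1 annotated start site with a tract was found for 43 of the 60 member genes with a window (71.7%), against 5.87% of the 15339 other genes on the arrays and 8.70% of 69 mitochondrial ribosomal protein genes. The tract was present in 27 of 37 large subunit genes and 16 of 23 small subunit genes, and was 5 to 19 bases long with a median of 8. The windows below hold 10 bases before the start and 20 bases from it, 5′ to 3′, and capitals mark the tract. They are shown for the gene of each subunit with the highest log2 fold change (RPS24 and RPL39) and for RPS19, RPS27 and RPS3A, bright in all arrays. RPL10 is shown beside its paralog RPL10L, and RPS27 beside its paralog RPS27L.
RPS24 (chr10:78033853-78033882, plus strand): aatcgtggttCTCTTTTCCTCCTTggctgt
RPL39 (chrX:119791611-119791640, minus strand): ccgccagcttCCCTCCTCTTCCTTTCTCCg
RPS19 (chr19:41860245-41860274, plus strand): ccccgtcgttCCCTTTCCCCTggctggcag
RPS3A (chr4:151099618-151099647, plus strand): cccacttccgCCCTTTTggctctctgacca
RPS27 (chr1:153990752-153990781, plus strand): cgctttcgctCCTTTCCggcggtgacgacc
RPS27L (chr15:63157458-63157487, minus strand): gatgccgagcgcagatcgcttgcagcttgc
RPL10 (chrX:154398367-154398396, plus strand): ggaggagcgcCTCTTTCCCTTCggtgtggt
RPL10L (chr14:46651762-46651791, minus strand): gtagttaagagagcgcattttgacttcgag

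The starts shown for RPS24, RPL39, RPS19, RPS3A, RPS27 and RPL10 thus open with a tract, and those of RPS27L and RPL10L do not. RPL10 has 3 annotated starts and RPS19 has 2, and those not shown hold no tract. Runs of pyrimidines that begin a few bases from the annotated start, as in RPL4 and RPL19, were not counted. The median log2 fold change (shDCUN1D1 minus shGFP) was 1.46 over the 43 genes with a tract and 1.67 over the 17 genes without one, and both groups of genes ranged from slightly below 0 to above 3. In 19 of the 43 and 12 of the 17, shDCUN1D1 replicate 1 was more than 2 log2 above each other array (4.32% of all genes). The median of their mean signals was 6.33 with a tract and 4.83 without one.

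Before the results, the arrays themselves differed. DCUN1D1 read 1.60 and 1.45 in the shDCUN1D1 arrays, against 2.55 and 1.99 in the shGFP arrays. Both knockdown arrays were lower, but the difference of −0.75 did not pass the fold bound defined below, and none of these values exceeded the array's nonspecific control probe set, whose probes of 20 G or C bases have no human target (2.48 and 2.51 in the shDCUN1D1 arrays, 2.97 and 3.30 in the shGFP arrays). In shDCUN1D1 replicate 1, 854 genes (4.32%) exceeded every other array by more than 2 log2, as did 0 in shDCUN1D1 replicate 2, 0 in shGFP replicate 1 and 5 in shGFP replicate 2. For GAPDH, the array's 3′ control probe set read 10.82 and 5.09 in the shDCUN1D1 arrays and 5.02 and 4.68 in the shGFP arrays, and that of ACTB 8.29 and 4.35 against 4.05 and 3.95. The ACTB probe set in the middle of the transcript read 10.48 and 10.55 against 10.26 and 9.65. Its 5′ probe set read 9.2 and 8.8 against 8.5 and 8.1. For GAPDH the middle probe set read 11.07 and 10.01 against 9.39 and 9.05, and the 5′ probe set 9.67 and 7.14 against 6.60 and 6.42. The GAPDH 3′ probe set was thus dimmer than both in every array but shDCUN1D1 replicate 1. The array's bioB control probe set read 6.37 and 6.22 against 8.22 and 10.49, lower in both shDCUN1D1 arrays. Among epithelial markers KRT18 was bright in shDCUN1D1 replicate 1 alone, with 7.62 and 1.69 in the shDCUN1D1 arrays and 1.68 and 1.63 in the shGFP arrays. EPCAM, CDH1 and KRT19 were not above the nonspecific control in any array. KRT8 was above it in all 4. The leukocyte markers (3 measured) and endothelial markers (3 measured) were not above it in any array, and of 5 fibroblast markers only COL1A1 was. These whole-array differences move with the values below, and their part in the result was not tested.

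The ribosomal protein genes were much brighter in shDCUN1D1 replicate 1 than in the other 3 arrays, and shDCUN1D1 replicate 2 lay with the controls. Their median log2 signal was 8.36 and 5.70 in the shDCUN1D1 arrays and 5.57 and 4.77 in the shGFP arrays, while the median of all genes was 1.85 and 1.88 against 1.88 and 1.85. At the median member, shDCUN1D1 replicate 1 was 2.56 log2 (5.91-fold) above the mean of the shGFP arrays. For shDCUN1D1 replicate 2 the same difference was 0.10 log2 (1.08-fold). In bulk RNA, a different number of contributing cells and a different amount of RNA per cell cannot be told apart.

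Both subunits showed this pattern. Large subunit genes had medians of 7.94 and 4.47 in the shDCUN1D1 arrays, against 4.68 and 4.50 in the shGFP arrays, and small subunit genes 9.70 and 6.64 against 6.76 and 6.26. The highest of the 4 arrays was shDCUN1D1 replicate 1 for 67 of the 72 genes, shDCUN1D1 replicate 2 for 1 (RPL23), shGFP replicate 1 for 3 (RPL3L, RPL39L and RPS9) and shGFP replicate 2 for 1 (RPL10L). In 37 of 72 genes (51.4%) shDCUN1D1 replicate 1 was more than 2 log2 above each other array, beside the 4.32% of all genes given above. These were 23 of 46 large subunit genes (50.0%) and 14 of 26 small subunit genes (53.8%), and in none of the other arrays did a member stand apart in this way.

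**Figure D1:**
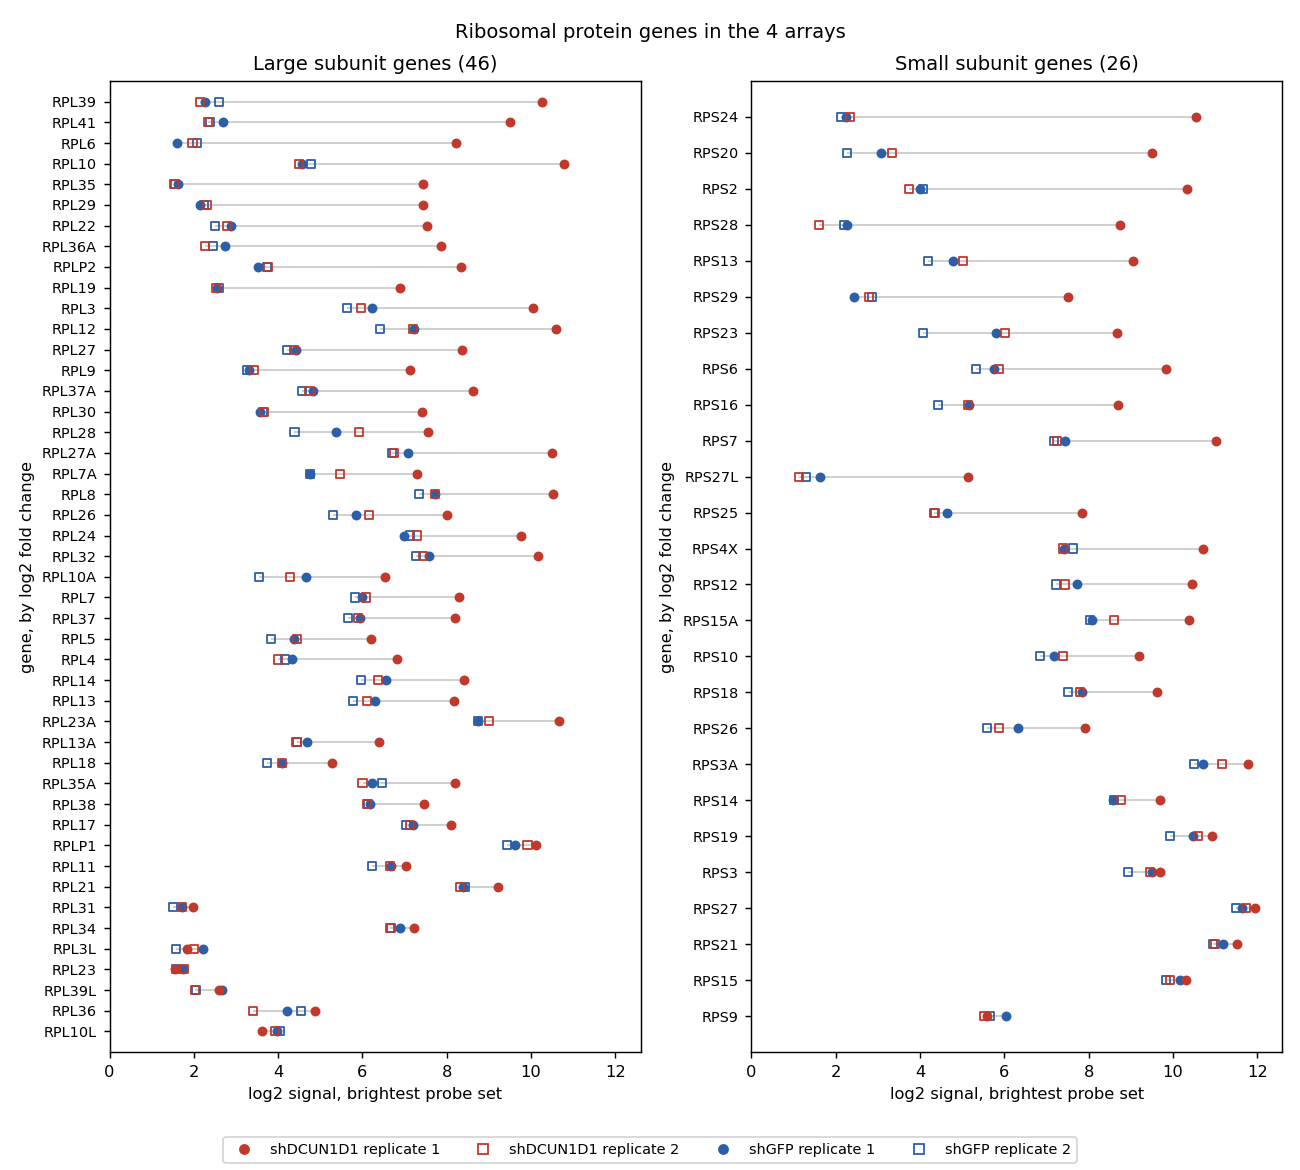
Log2 signal of the brightest probe set of each ribosomal protein gene in the 4 arrays, shDCUN1D1 in red and shGFP in blue, filled circles for replicate 1 and open squares for replicate 2, genes ordered by log2 fold change with the largest at the top. The filled red circle lies furthest right for 67 of 72 genes, while shDCUN1D1 replicate 2 lies among the shGFP arrays.

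The genes varied in how far shDCUN1D1 replicate 1 stood from the rest. It was more than 5 log2 above each other array for 11 genes: RPL6, RPL10, RPL29, RPL35, RPL36A, RPL39, RPL41, RPS2, RPS20, RPS24 and RPS28. For 19 genes it was within 1 log2 of the highest other array. Over the 72 genes, log2 signal correlated between shDCUN1D1 replicate 2 and the shGFP arrays at Pearson r of 0.994 and 0.986, and between the shGFP arrays at 0.990. Between shDCUN1D1 replicate 1 and the other arrays r was 0.623 to 0.637. Over all 19774 genes the values for shDCUN1D1 replicate 2 and the shGFP arrays were 0.920 and 0.825. For shDCUN1D1 replicate 1 and the other arrays the values over all genes were 0.665 to 0.760. These are descriptions across genes, which share the arrays and are not independent replicates.

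**Figure D2:**
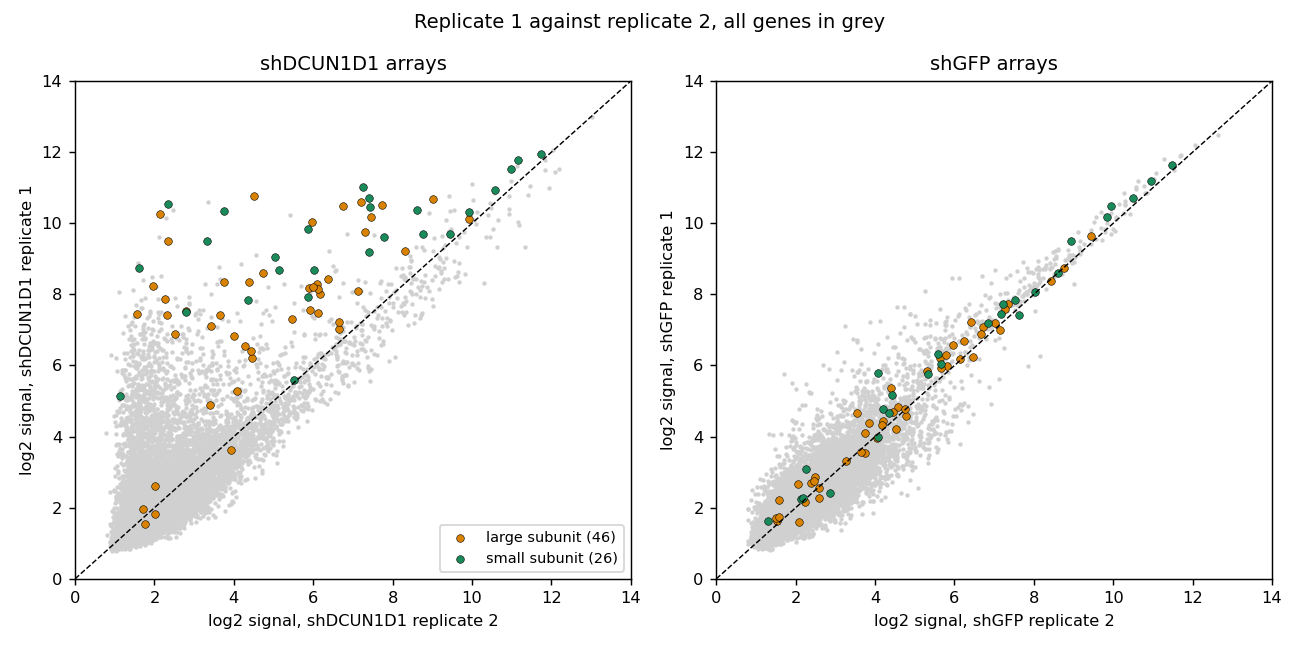
Log2 signal of replicate 1 (vertical) against replicate 2 (horizontal) for the shDCUN1D1 arrays (left) and the shGFP arrays (right), all 19774 genes in grey, ribosomal protein genes coloured by subunit, dashed line at equality. Members scatter above the line on the left (r = 0.636 over 72 genes) and lie along it on the right (r = 0.990).

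Against this spread, 1 member passed the fold bound and 0 passed the threshold on adjusted p. A gene was called past the fold bound when the lower limit of the two-sided 90% interval of its fold change, from limma, exceeded 1.2. RPS3A, a small subunit protein on the solvent side, was higher, and 0 members were lower. Of all genes, 1.57% passed this bound upwards and 3.64% downwards, so 1 of 72 is near the background. After Benjamini-Hochberg adjustment over all genes in limma, 0 members and 0 of all genes passed 0.05 (lowest adjusted p 0.59). At an unadjusted p under 0.05 there was 1 member, RPS3A, and 1659 of all genes. The smallest p of an exact two-sided permutation test of 2 against 2 arrays is 0.333.

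The spread lay within the knockdown. The median SD of a member was 1.60 between the shDCUN1D1 arrays and 0.21 between the shGFP arrays, against 0.18 and 0.15 over all genes. The median log2 fold change was 1.34 in the large subunit and 1.50 in the small subunit (−0.01 over all genes), and it was positive for 67 of 72 members, with a range of −0.30 to 4.26. Both shDCUN1D1 arrays were above both shGFP arrays for 24 members (33.3%, against 18.4% of all genes), 13 of the large and 11 of the small subunit. Both were below for 2 members (2.78%, against 26.3% of all genes), RPL10L and RPS9. Since shDCUN1D1 replicate 1 was the highest array for 67 of 72 members, these counts turn mainly on where shDCUN1D1 replicate 2 lay. Their difference from all genes is therefore not separate evidence from a second knockdown array.

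Leaving out an array changed these values. Without shDCUN1D1 replicate 1 the medians were 0.08 in the large and 0.15 in the small subunit, and 0 members were higher or lower past the bound in limma, where 3.59% of all genes were higher and 3.11% lower. Without shDCUN1D1 replicate 2 the medians were 2.49 and 3.08, and 54 of 72 members were higher, beside 11.4% of all genes. In both of these fits the lone knockdown array was assumed to vary like the shGFP arrays. Compared gene by gene, shDCUN1D1 replicate 2 was within 1 log2 of the shGFP mean for 70 of 72 members and above it for 45. The exceptions were RPS23 (1.09 above) and RPL28 (1.03 above), both with shGFP arrays far apart: RPS23 read 5.80 and 4.08 there, and RPL28 5.37 and 4.39. Between the controls, shGFP replicate 2 was below shGFP replicate 1 for 55 of 72 members.

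**Figure D3:**
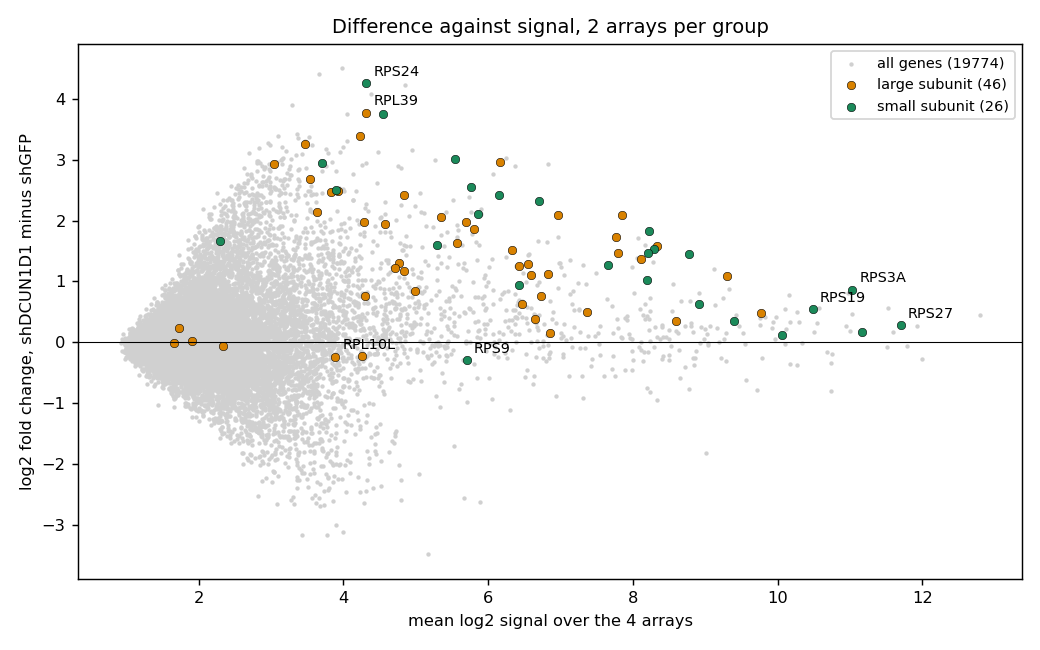
Log2 fold change (mean of 2 shDCUN1D1 arrays minus mean of 2 shGFP arrays, vertical) against mean log2 signal over the 4 arrays (horizontal), all 19774 genes in grey and ribosomal protein genes coloured by subunit. Members lie mostly above 0, highest at RPS24 (4.26), and narrow towards 0 at high signal, where RPS3A (0.87) and RPS27 (0.28) lie.

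Among small subunit genes, RPS24 had the highest log2 fold change. It encodes a protein of the subunit body that is mutated in some patients with Diamond-Blackfan anaemia, an inherited failure of red cell production. RPS24 read 10.54 and 2.34 in the shDCUN1D1 arrays, against 2.24 and 2.12 in the shGFP arrays, a log2 fold change of 4.26 ± 2.67 (SE, n = 2 each; limma adjusted p = 0.59). RPS20, at the head of the subunit, read 9.50 and 3.33 against 3.08 and 2.26. RPS28, near the mRNA exit, read 8.74 and 1.61 against 2.27 and 2.19. In each of them only shDCUN1D1 replicate 1 was bright. RPS24 and RPS28 were not above the nonspecific control in the other 3 arrays, so the sizes of their differences are set against background. RPS28 was lower in shDCUN1D1 replicate 2 than in both shGFP arrays, and its other probe sets read 1.83 and 2.06 in shDCUN1D1 replicate 1. RPS29, also of the head, was among the dimmest members and read 7.50 and 2.79 in the shDCUN1D1 arrays and 2.43 and 2.86 in the shGFP arrays.

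RPS3A read 11.78 and 11.16 in the shDCUN1D1 arrays, against 10.70 and 10.50 in the shGFP arrays, and the groups did not overlap. Its log2 fold change was 0.87 ± 0.26 (SE, n = 2 each; limma adjusted p = 0.59), with a fold bound of 1.26. It still passed the bound without shDCUN1D1 replicate 2 (log2 fold change 1.18), and did not pass it without shDCUN1D1 replicate 1 (0.55), shGFP replicate 1 (0.97) or shGFP replicate 2 (0.76). Of its other probe sets, a second read 10.21 and 8.88 in the shDCUN1D1 arrays and 8.30 and 8.21 in the shGFP arrays, and the next read 9.20 and 7.12 against 7.06 and 6.96. The groups did not overlap in these either, but neither passed the bound. The last was dim, with 1.97 and 2.74 against 2.27 and 2.20.

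RPS19, a head protein and the first gene linked to Diamond-Blackfan anaemia, was taken up in the protein experiments of the study. It read 10.92 and 10.59 in the shDCUN1D1 arrays, against 10.49 and 9.93 in the shGFP arrays. Both knockdown arrays were above both controls, but the gap between shDCUN1D1 replicate 2 and shGFP replicate 1 was smaller than the gap between the controls. The log2 fold change was 0.55 ± 0.28 (SE, n = 2 each; limma adjusted p = 0.59), not past the bound. A second probe set read 10.81 and 10.44 against 10.56 and 10.05, where the groups overlapped, and its other probe sets were at 2.13 or below in each array.

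The other bright small subunit genes differed little between arrays. RPS27, a zinc-binding protein of the subunit, read 11.96 and 11.73 in the shDCUN1D1 arrays and 11.64 and 11.49 in the shGFP arrays. RPS21 read 11.51 and 10.99 against 11.20 and 10.96, and RPS15, a head protein, 10.31 and 9.92 against 10.16 and 9.83. The groups overlapped for RPS21 and RPS15 and did not overlap for RPS27, whose log2 fold change of 0.28 ± 0.15 (SE, n = 2 each) was not past the bound. RPS9, which lines the mRNA entry, had the only negative value of the small subunit: 5.59 and 5.52 in the shDCUN1D1 arrays and 6.03 and 5.67 in the shGFP arrays, a log2 fold change of −0.30 ± 0.51. A different probe set of RPS9 read 7.59 and 1.45 against 2.20 and 1.75, so its direction depended on the probe set.

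By place in the small subunit, the median log2 fold change was 0.35 over 3 genes of the mRNA entry (RPS2, RPS3 and RPS9), 0.94 over 3 of the mRNA exit (RPS14, RPS26 and RPS28) and 1.46 over 9 of the head and beak. RPS2, RPS3 and RPS9 differed widely among themselves. RPS2 read 10.34 and 3.74 in the shDCUN1D1 arrays, against 3.99 and 4.08 in the shGFP arrays. RPS3 read 9.69 and 9.45 against 9.51 and 8.94. In the head and beak, shDCUN1D1 replicate 1 stood apart by more than 2 log2 for 5 of 9 genes, RPS12, RPS16, RPS20, RPS25 and RPS29.

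Among large subunit genes, RPL39 had the highest log2 fold change. This small protein lines the tunnel through which the new peptide leaves. RPL39 read 10.27 and 2.14 in the shDCUN1D1 arrays, against 2.27 and 2.59 in the shGFP arrays, a log2 fold change of 3.77 ± 2.65 (SE, n = 2 each; limma adjusted p = 0.60). RPL41, the smallest ribosomal protein, read 9.49 and 2.34 against 2.68 and 2.37, and RPL6, of the solvent side, 8.23 and 1.97 against 1.61 and 2.08. For RPL39 and RPL41, shDCUN1D1 replicate 2 was below both controls, and for RPL6 it lay between them. RPL39, RPL41 and RPL6 were above the nonspecific control in shDCUN1D1 replicate 1 alone, so their order and the sizes of their differences are set against background. RPL28, in which the groups did not overlap, came nearest to the bound in this subunit: 7.56 and 5.91 in the shDCUN1D1 arrays and 5.37 and 4.39 in the shGFP arrays, with a bound of 1.19.

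The 8 genes at the rim of the peptide exit tunnel had a median log2 fold change of 1.82, with shDCUN1D1 replicate 1 apart for 4 of them. RPL35, RPL19 and RPL22 belonged to these beside RPL39. RPL23A, where the signal recognition particle docks, was among the 3 brightest of the large subunit with 10.67 and 9.01 in the shDCUN1D1 arrays and 8.74 and 8.75 in the shGFP arrays. RPL31 was among the dimmest, with 1.97 and 1.71 against 1.71 and 1.50, not above the nonspecific control in any array.

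RPL5 and RPL11 bind 5S ribosomal RNA and, outside the ribosome, can inhibit MDM2, the ligase that marks p53 for degradation. RPL11 is also a known target of NEDD8. RPL5 read 6.21 and 4.45 in the shDCUN1D1 arrays, against 4.37 and 3.84 in the shGFP arrays, a log2 fold change of 1.22 ± 0.75. RPL11 read 7.04 and 6.65 against 6.68 and 6.23, a log2 fold change of 0.39 ± 0.51 (SE, n = 2 each). Neither passed the bound, and the groups overlapped for RPL11 and not for RPL5.

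The P stalk recruits elongation factors. RPLP1, one of its acidic proteins and the brightest large subunit gene, read 10.11 and 9.92 in the shDCUN1D1 arrays and 9.63 and 9.43 in the shGFP arrays, a log2 fold change of 0.48 ± 0.26. RPLP2, its dimer partner, read 8.35 and 3.76 against 3.53 and 3.74, a log2 fold change of 2.42 ± 1.55 (SE, n = 2 each). The groups did not overlap for either, but in RPLP2 shDCUN1D1 replicate 2 was only 0.02 above the higher control. The other RPLP2 probe sets read 1.69 and 1.22 in shDCUN1D1 replicate 1. RPL12, at the base of the stalk, read 10.59 and 7.20 against 7.22 and 6.41, and its groups overlapped.

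RPL21, the third bright gene of the large subunit, read 9.22 and 8.32 in the shDCUN1D1 arrays and 8.38 and 8.44 in the shGFP arrays. RPL36 gave 4.88 and 3.40 against 4.20 and 4.53, with both controls between the knockdown arrays. RPL23 was the dimmest member by mean signal, with 1.55 and 1.77 against 1.75 and 1.58, under the nonspecific control in every array. Signal differs between probe sets for reasons of probe chemistry, so these levels do not rank the abundance of the mRNAs.

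Of the paralogs whose symbols end in L, RPS27L was bright in shDCUN1D1 replicate 1, in 1 of its 3 probe sets, and the others were not. RPL10L, the counterpart of X-linked RPL10 in the testis, read 3.62 and 3.92 in the shDCUN1D1 arrays, against 3.97 and 4.04 in the shGFP arrays. RPL10 read 10.78 and 4.50 against 4.57 and 4.78, but its other probe sets read 3.36, 1.97 and 1.16 in shDCUN1D1 replicate 1. RPL39L, another testis paralog, read 2.60 and 2.02 against 2.68 and 2.06. RPL3L, the paralog of striated muscle, read 1.84 and 2.01 in the shDCUN1D1 arrays and 2.22 and 1.58 in the shGFP arrays. Its partner RPL3, next to the peptidyl transferase centre, read 10.04 and 5.97 against 6.22 and 5.63. RPS27L, a p53 target, read 5.14 and 1.12 against 1.64 and 1.30, whereas RPS27 was nearly level across the arrays. The other RPS27L probe sets read 1.82 and 1.26 in shDCUN1D1 replicate 1. The median log2 fold change of these 4 paralogs was −0.02, and 0 of them passed the bound.

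Probe sets of one gene often disagreed. In 72 of 177 member probe sets (40.7%) shDCUN1D1 replicate 1 was more than 2 log2 above each other array, against 3.46% of all probe sets naming 1 gene, and these came from 47 genes. Of the 46 genes with several probe sets, some but not all probe sets did so in 28, all in 5 (RPL4, RPL24, RPS2, RPS4X and RPS20) and none in 13. The log2 fold changes had both signs in 23, and the median range within a gene was 1.93. RPS24 had the widest range (4.20): its second probe set read 1.90 and 1.24 in the shDCUN1D1 arrays and 1.53 and 1.49 in the shGFP arrays.

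RPS16, a head protein, followed in the small subunit, and RPL7 and RPL13 were widest in the large subunit. RPS16 had 3 probe sets at 7.76 to 9.39 in shDCUN1D1 replicate 1 and another that read 2.26 and 2.36 in the shDCUN1D1 arrays against 2.22 and 2.34 in the shGFP arrays. RPL13 had 9 probe sets: 5 read 7.44 to 8.89 in shDCUN1D1 replicate 1 and 4 read 1.68 to 2.29. RPL7 had a range of 3.96, with log2 fold changes of −1.29 to 2.68.

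Fitted probe set by probe set, 1 member was higher (RPS3A, against 1.18% of all probe sets) and 2 were lower past the bound (against 2.38%). One of the lower ones named RPL18 and read 2.43 and 3.05 in the shDCUN1D1 arrays, against 4.18 and 5.17 in the shGFP arrays. The other named RPL7 and read 1.80 and 1.78 against 2.89 and 3.26. The brightest probe sets of the same genes lay the other way, with log2 fold changes of 0.76 for RPL18 and 1.29 for RPL7.

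**Figure D4:**
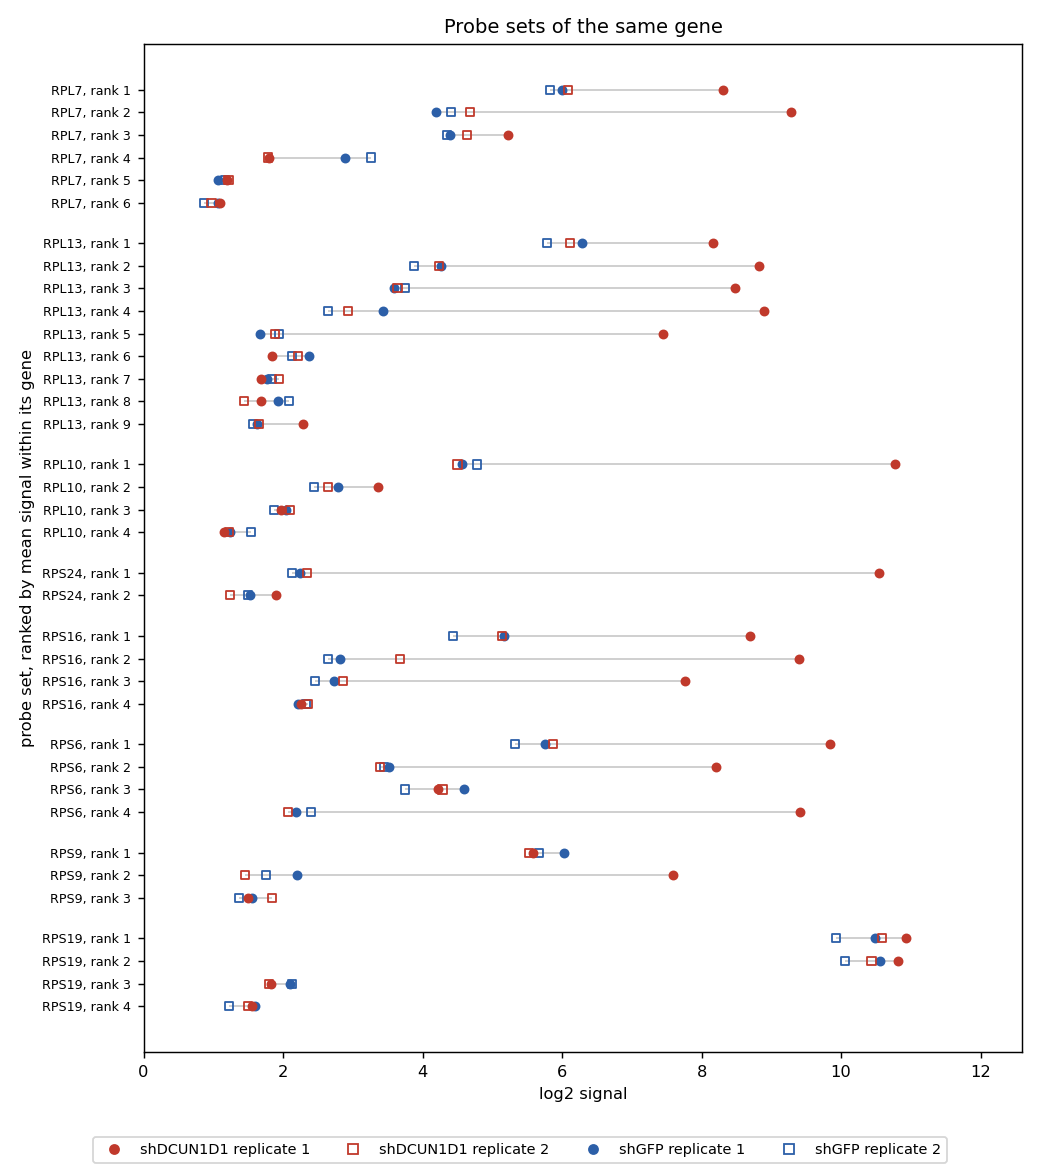
Log2 signal of every probe set of 8 ribosomal protein genes in the 4 arrays, ranked by mean signal within each gene, shDCUN1D1 in red and shGFP in blue, filled circles for replicate 1 and open squares for replicate 2. In RPS24 the first probe set reads 10.54 in shDCUN1D1 replicate 1 and the second 1.90, while both bright probe sets of RPS19 lie close together in all arrays.

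The kind of probe set and its level went with the difference. Platform names mark probe sets whose probes match several transcripts of a family (suffix s) or may cross-hybridise with other sequences (suffix x), and ribosomal protein genes have many processed pseudogenes. In shDCUN1D1 replicate 1, 40 of 70 member probe sets with the suffix x stood apart (57.1%, against 7.23% of all such probe sets), 23 of 48 with the suffix s (47.9%, against 6.31%), and 9 of 59 with neither (15.3%, against 2.08%). By the mean of the other 3 arrays, the share was 17.0% of 47 probe sets at 0 to 2, 58.9% of 56 at 2 to 4, 59.5% of 37 at 4 to 6, 37.5% of 24 at 6 to 8 and 0 of 13 above 8. Of the 72 probe sets that stood apart, 41 were under 4 log2 in shDCUN1D1 replicate 2, and 41 and 43 in the shGFP arrays, but 0 in shDCUN1D1 replicate 1. Kind and level went together: in shDCUN1D1 replicate 2 the median member signal was 4.44 with suffix x, 3.82 with s and 1.90 with neither. Their parts were not separated, and the part of cross-hybridisation in these values was not tested.

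Other genes of the translation machinery were compared from lists chosen by function. Of 40 initiation and elongation factors measured, 2 were higher past the bound and 0 lower (1.57% and 3.64% of all genes), and the median log2 fold change was 0.98. In 14 of them (35.0%, against 4.32% of all genes) shDCUN1D1 replicate 1 stood apart. EIF4A1, the helicase that unwinds the 5′ end of mRNAs, read 9.71 and 6.86 in the shDCUN1D1 arrays against 5.94 and 4.78 in the shGFP arrays, and EIF3G, a subunit of the factor that binds the small subunit, 5.09 and 3.94 against 3.20 and 2.46. Both were past the bound, with the knockdown arrays above both controls. EEF1A1, which delivers aminoacyl-tRNA, read 13.00 and 13.03 against 12.48 and 12.64, not past the bound.

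Of 75 mitochondrial ribosomal protein genes, 5 were higher and 1 lower past the bound (beside the same 1.57% and 3.64% of all genes), with a median of 0.67 and shDCUN1D1 replicate 1 apart for 21 (28.0%, against 4.32%). The higher genes were MRPL17, MRPL48, MRPL49, MRPS18B and MRPS30, and the lower gene was MRPS18A. Of 51 measured genes of ribosome biogenesis and RNA polymerase I, 1 was higher and 2 lower (again beside 1.57% and 3.64%), with a median of 0.55 and replicate 1 apart for 11 (21.6%, against 4.32%). The higher gene was EFL1, which releases EIF6 from the new large subunit (2.79 and 2.82 against 2.13 and 1.77). The lower genes were UBTF, an activator of RNA polymerase I (3.02 and 2.15 in the shDCUN1D1 arrays, 3.63 and 3.86 in the shGFP arrays), and BOP1, needed for large subunit maturation (2.75 and 2.01 against 3.47 and 3.44). FAU, which encodes RPS30 fused to a ubiquitin-like protein and lies outside the naming rule, read 8.66 and 6.54 against 6.91 and 6.59 and was not past the bound.

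**Figure D5:**
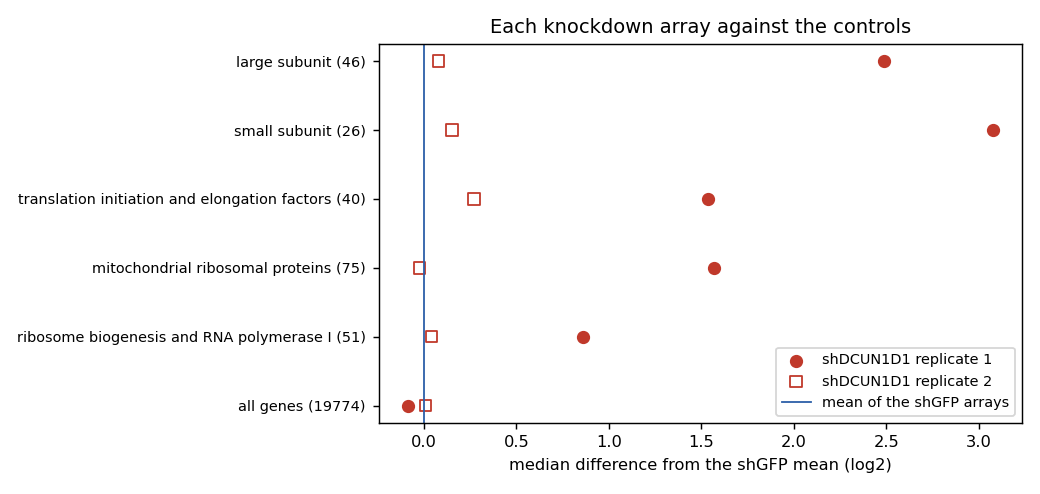
Median difference in log2 signal of each shDCUN1D1 array from the mean of the shGFP arrays (vertical line at 0), for both subunits, 3 other gene lists and all genes, with the number of genes measured. Replicate 1 lies at 2.49 for the large and 3.08 for the small subunit, and at 1.54 for the translation factors, 1.57 for the mitochondrial and 0.86 for the biogenesis genes; replicate 2 lies at 0.08 and 0.15 for the subunits.

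Diamond-Blackfan anaemia genes, 18 of 20 measured, had a median log2 fold change of 1.36. Both shDCUN1D1 arrays were above both controls for 9 of them (50.0%, against 33.3% of the 72 members and 18.4% of all genes). As shDCUN1D1 replicate 1 was the highest array for all 18, this count turns on shDCUN1D1 replicate 2 alone. Replicate 1 stood apart for 7 (38.9%, against 51.4% of the 72 members and 4.32% of all genes). In limma 0 were past the bound, nor did any reach an unadjusted p under 0.05. RPL35, a gene of this list, read 7.45 and 1.55 in the shDCUN1D1 arrays, against 1.61 and 1.53 in the shGFP arrays. The share of members above the nonspecific control was 95.8% and 81.9% in the shDCUN1D1 arrays and 77.8% and 75.0% in the shGFP arrays. Over all genes it was 27.8% and 23.3% against 15.2% and 10.4%. The control itself read 2.48 and 2.51 in the shDCUN1D1 arrays and 2.97 and 3.30 in the shGFP arrays. These shares are thus set against different levels and do not compare detection between the groups.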

How the data were processed

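The deposited table holds log2 signal for each probe set in each of the 4 arrays. Affymetrix Expression Console is named in the submitters' processing notes, and dChip, with a smoothing spline, in the methods of the study. The sources used here do not say which of them gave these values, and no detection calls were used. The number of arrays and the signal over background limit the precision.

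Only probe sets with exactly 1 gene in the annotation were tested, without the 102 array controls. All 72 member genes matched RefSeq by gene ID. No scaling was added. The test was limma (version 3.58.1, R 4.3.3), its variance prior trended on signal, and p-values were adjusted over 19774 genes by Benjamini-Hochberg with a threshold of 0.05; 0 value columns lacked a sample. The fold bound of 1.2 follows the study's rule but not its software. The fit was tested on simulated arrays with 200 changed genes. Start sites and sequences are from RefSeq (GRCh38.p14), with RPL23, RPL23A, RPL30, RPL37, RPL39L, RPL3L, RPL5, RPL7, RPL8, RPS15A, RPS2 and RPS20 not in the windows used here.

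Named were RPS19, the 5S, P stalk and ubiquitin-fusion genes, each paralog ending in L with its partner, and, per subunit, genes past the bound (filled to 3 per direction by size), the 3 brightest and 3 dimmest, and the 2 with the widest range between probe sets. Other named genes complete counts or illustrate a role and were picked with their values in view. Members and lists were chosen with earlier results of these data known. Alternatives were quantile normalization, median centring, filters on dim genes, other probe set summaries and variance models, a one-sided bound, a replicate block and leaving out each array. The replicate numbers were not used to pair arrays.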

Additional observations from a re-analysis of the deposited data

Results flagged for a closer look

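Among the 11 probe sets that name a ribosomal protein gene together with other genes, which entered no comparison, 2 are given here. In each, both shDCUN1D1 arrays read higher than the shGFP arrays, and shDCUN1D1 replicate 1 was far above every other array. The probe set naming RPL13A and 5 of its pseudogenes read 9.18 and 4.22 in the shDCUN1D1 arrays, against 4.01 and 3.65 in the shGFP arrays, so that replicate 1 was 4.96 log2 above the highest other array. The probe set naming RPL13A and RPL13AP5 read 7.41 and 1.71 in the shDCUN1D1 arrays, against 1.63 and 1.65 in the shGFP arrays, a gap of 5.70 log2. There shDCUN1D1 replicate 2 and the shGFP arrays were under the nonspecific control (2.51, 2.97 and 3.30), so their order is one of background values.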

How the results depend on the processing

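The median log2 fold change stayed positive under each alternative run, in both subunits. Leaving out 1 array gave 0.081 to 2.489 in the large subunit and 0.153 to 3.078 in the small subunit, the ends coming without shDCUN1D1 replicate 1 and replicate 2. Quantile normalization gave 0.68 and 0.95, and every probe set tested gave 0.88 and 0.90, against 1.34 and 1.50. The count of 1 member higher past the bound became 0 with the mean of the probe sets of a gene, 2 with no variance trend, 0 with standard errors without moderation, 11 with a one-sided 90% bound and 0 to 54 when 1 array was left out (0 without shDCUN1D1 replicate 1, shGFP replicate 1 or shGFP replicate 2). With a replicate block it was 4. Deviations of arrays with the same number correlated at −0.04 over genes. With 2 arrays per group, this single value cannot settle whether the numbers pair the arrays. The count of 0 members lower became 2 with every probe set tested. A filter to genes above the nonspecific control, chosen after seeing the data, left the count at 1. Except where an alternative removes arrays or changes the probe sets, the cause was not tested. Signal near the nonspecific control limits the dim members.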

Other observations

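Of the other probe sets naming a ribosomal protein gene with a second gene, the one for RPL31 and RPL31P11 read 9.16 and 8.67 in the shDCUN1D1 arrays and 8.80 and 8.55 in the shGFP arrays, although the probe sets naming RPL31 alone were dim. The probe set for RPL23 and SNORA21 read 6.27 and 4.81 in the shDCUN1D1 arrays, against 4.70 and 4.81 in the shGFP arrays. That for RPL10 and NDUFS5 read 7.85 and 2.17 in the shDCUN1D1 arrays and 1.95 and 2.94 in the shGFP arrays, bright in shDCUN1D1 replicate 1 alone.

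Outside the naming rule, RPL7L1, a relative of RPL7, read 5.32 and 2.22 in the shDCUN1D1 arrays and 1.72 and 1.24 in the shGFP arrays, with the groups apart. RPL22L1, the paralog of RPL22, read 6.70 and 7.06 in the shDCUN1D1 arrays, against 6.35 and 6.28 in the shGFP arrays, and was higher in shDCUN1D1 replicate 2 than in replicate 1. RPL36AL read 8.48 and 8.51 in the shDCUN1D1 arrays and 8.72 and 8.39 in the shGFP arrays, whereas RPL36A read 7.87 and 2.26 against 2.74 and 2.45.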
